A study of Homo sapiens and Mus musculus with 20 samples.

Results

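CpG-rich promoters are the regions of accessible chromatin that lie at gene starts dense in the dinucleotide CG. In SW480, an established human colorectal adenocarcinoma line, they were taken from ATAC-seq peak lists, in which Tn5 transposase marks open chromatin. The peak intervals of the 12 SW480 libraries were merged into 252173 regions, and 167303 of these had a peak in at least 2 libraries. A region was kept when it lay within 1 kb of the start of a protein-coding transcript whose surrounding 500 bp had a GC content of at least 55% and an observed over expected CpG ratio of at least 0.65. The rule gave 14619 regions at 11089 genes, 8.74% of the 167303. Of the remainder, 9554 lay at starts below these limits (CpG-poor promoters) and 143130 lay farther than 1 kb from any such start. In the first experiment, 3 libraries of cells given 10 mM sodium propionate (NaPr) were set against 3 of untreated cells. In the second, 3 libraries of cells given 1 mM sodium butyrate (NaBu) were set against 3 other untreated libraries. All 4 groups were the same line, treatment lasted 12 to 16 h, and 50000 viable cells entered each Omni-ATAC reaction. The experiments carried different dates and doses, so the compounds were set side by side and not compared, and every group value below has n = 3. Nothing in the labels says that replicates were grown separately, so p-values measure the spread between these libraries.

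Promoters of this kind overlap CpG islands, stretches that escape DNA methylation and that serve most housekeeping genes and many developmental ones. Such starts are usually held free of nucleosomes, with regularly spaced nucleosomes following into the gene, and Tn5 cuts in the free stretch and in the linkers between nucleosomes. Gut bacteria release propionate and butyrate, short-chain fatty acids that colon cells take up. Both are known as inhibitors of histone deacetylases and as sources of acyl groups for histones, and the study asked how they alter accessible chromatin in colorectal cancer cells.

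The sequences below show what the selection means in bases. They are the 200 bases before the start of 8 promoters, taken from GRCh38 in the direction of transcription, with each CG in capitals, and they were printed because these regions changed most in fold enrichment among regions with a peak in all 6 libraries. The first 4 changed after NaPr. NUDT19 (a nudix hydrolase, chr19:32691621-32691820, plus strand) fell and holds 13 CG, and its window overlaps an exon of the antisense gene NUDT19-DT. ACTN2 (an alpha-actinin, chr1:236686299-236686498, plus) fell and holds 31. C20orf85 (chr20:58150702-58150901, plus) and PLXNA2 (a semaphorin receptor, chr1:208244385-208244584, minus) hold 12 and 25. In both of these the region that rose lay upstream of the printed bases, 713 and 632 bp before the start.
NUDT19: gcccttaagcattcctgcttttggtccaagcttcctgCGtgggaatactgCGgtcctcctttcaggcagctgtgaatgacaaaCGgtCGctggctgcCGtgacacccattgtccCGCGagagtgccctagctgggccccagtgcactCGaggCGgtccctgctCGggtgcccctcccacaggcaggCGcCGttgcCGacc
ACTN2: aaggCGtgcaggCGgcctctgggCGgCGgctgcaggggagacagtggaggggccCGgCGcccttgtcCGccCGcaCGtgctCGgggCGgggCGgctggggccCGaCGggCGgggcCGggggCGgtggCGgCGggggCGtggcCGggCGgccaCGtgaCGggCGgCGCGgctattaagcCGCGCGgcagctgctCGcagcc
C20orf85: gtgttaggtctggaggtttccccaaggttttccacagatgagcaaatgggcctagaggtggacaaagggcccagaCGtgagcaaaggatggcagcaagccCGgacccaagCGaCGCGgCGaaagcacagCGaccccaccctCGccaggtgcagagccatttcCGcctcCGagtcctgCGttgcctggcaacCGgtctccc
PLXNA2: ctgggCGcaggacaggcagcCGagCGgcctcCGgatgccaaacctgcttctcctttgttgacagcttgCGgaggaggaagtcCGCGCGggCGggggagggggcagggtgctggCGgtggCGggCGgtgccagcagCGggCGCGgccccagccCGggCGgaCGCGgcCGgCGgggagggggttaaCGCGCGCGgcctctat

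The other 4 changed after NaBu. ARID3C (a DNA-binding protein of the ARID family, chr9:34629067-34629266, minus) and SRSF12 (a splicing factor of the SR family, chr6:89118072-89118271, minus) fell and hold 18 and 23 CG. RNF111 (a ubiquitin ligase of TGF-beta signalling, chr15:58864975-58865174, plus) holds 23, and the region that rose lay 991 bp after the printed start. Its window overlaps exons of ZNF444P1 and of ENSG00000259353, and the other windows, apart from that of NUDT19, overlap no annotated exon. ARHGEF16 (a guanine nucleotide exchange factor, chr1:3454465-3454664, plus) rose and holds 27. The GC box GGGCGG was found 8 times on either strand before ACTN2, 5 times before ARHGEF16, 4 times before SRSF12 and 3 times before ARID3C and PLXNA2, and not in the other windows.
ARID3C: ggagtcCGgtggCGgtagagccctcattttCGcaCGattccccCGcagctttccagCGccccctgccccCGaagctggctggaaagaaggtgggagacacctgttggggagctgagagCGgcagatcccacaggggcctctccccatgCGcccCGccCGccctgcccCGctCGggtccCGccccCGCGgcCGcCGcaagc
SRSF12: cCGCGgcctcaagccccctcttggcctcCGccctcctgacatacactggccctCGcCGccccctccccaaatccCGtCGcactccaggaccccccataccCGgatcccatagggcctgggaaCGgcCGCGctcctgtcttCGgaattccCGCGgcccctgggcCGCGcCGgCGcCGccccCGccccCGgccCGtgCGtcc
RNF111: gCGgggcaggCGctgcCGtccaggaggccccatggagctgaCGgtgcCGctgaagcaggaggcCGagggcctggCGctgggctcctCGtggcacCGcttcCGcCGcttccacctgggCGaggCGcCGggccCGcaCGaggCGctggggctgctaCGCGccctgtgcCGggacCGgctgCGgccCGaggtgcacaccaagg
ARHGEF16: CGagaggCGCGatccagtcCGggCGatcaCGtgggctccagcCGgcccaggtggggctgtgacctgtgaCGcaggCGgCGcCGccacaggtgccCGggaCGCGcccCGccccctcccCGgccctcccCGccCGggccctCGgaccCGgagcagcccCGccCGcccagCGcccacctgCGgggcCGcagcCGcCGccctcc

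Each list held 299022 to 299463 summits in 108442 to 144398 intervals and ended near 300000 lines, so the weakest listed peak differed between libraries, from a −log10 p of 3.37 to 6.53 in the NaPr experiment and from 7.25 to 9.38 in the NaBu experiment. The background pileup, the tags expected over a position, was 0.936 to 2.35 in the NaPr and 2.11 to 3.03 in the NaBu experiment, ranges that overlap. Regions were therefore ranked within each library by their highest −log10 p, from 0 (no peak) to 100 (strongest). Ranks were counted from the top over all regions tested, including those without a peak, so the weakest listed peak ranks well above 0. A region that drops just below the end of a list therefore jumps to 0, which enlarges rank differences where a peak is lost or gained. A rank is relative to all other regions and does not show a loss or gain of all sites alike. The line was checked against its label: 7 of 10 colon epithelial marker genes had a peak within 1 kb of a start in all 12 libraries (CDX1 had none), 4 of 5 immune markers had none and CD68 had one in all 12. Of 4 endothelial markers, 2 had none, PECAM1 had one in 11 libraries and VWF in 6. Of 6 fibroblast markers, 3 had one in all 12, PDGFRB had one in 9 and 2 had none.

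CpG-rich promoters were among the strongest and most constant sites of SW480. Of the 14619, 10880 (74.4%) had a peak in all 12 libraries, compared with 41.7% of CpG-poor promoters and 24.98% of regions far from a start. The median region was 1377 bp wide, and 11152 (76.3%) contained the start itself. Of 13316 genes with a start that met both sequence limits, 83.3% had a member. The median GC content around the start was 70% and the median CpG ratio 0.865, and 187 members lay within 1 point of the GC limit and 327 within 0.02 of the ratio limit. A protein-coding gene on the opposite strand started within 1000 bp upstream in 1430 members (9.78%). Another 685 members had a peak in only 2 libraries, which is the smallest number the selection allowed.

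Ranked by −log10 p, CpG-rich promoters held a lower place in treated libraries. Their median rank was 89.7, 90.5 and 89.9 in the untreated and 88.2, 88.6 and 88.1 in the NaPr-treated libraries. The groups did not overlap, with means of 90.0 ± 0.45 and 88.3 ± 0.26 (SD), and the exact permutation test gave p = 0.1 (two-sided), the smallest that 3 against 3 libraries allow. In the NaBu experiment the untreated libraries had medians of 87.6, 86.7 and 85.8 and the treated libraries 84.5, 81.5 and 82.1. These did not overlap either (86.7 ± 0.88 against 82.7 ± 1.58, exact permutation p = 0.1). Ranked by fold enrichment, the difference was -2.34 points after NaPr with overlapping groups (exact permutation p = 0.3) and -2.58 after NaBu (p = 0.1). The median fold enrichment itself was 12.1 ± 0.78 and 12.4 ± 0.69 in the NaPr and 11.9 ± 0.50 and 12.5 ± 0.27 in the NaBu experiment, with overlapping groups (exact permutation p = 0.5 and 0.3). The decline was not particular to CpG-rich starts. CpG-poor promoters moved from 63.5 to 61.1 and from 60.8 to 57.3, and the change in the distance between both classes was 0.66 points after NaPr (exact permutation p = 0.1, groups apart) and -0.54 after NaBu (p = 0.7, groups overlapping). The former was 0.08 with ranks by fold enrichment and turned to -0.258 in the 50000 strongest intervals and -0.212 with windows on summits. Leaving out NaBu libraries moved the latter between -1.61 and 0.217.

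**Figure D1:**
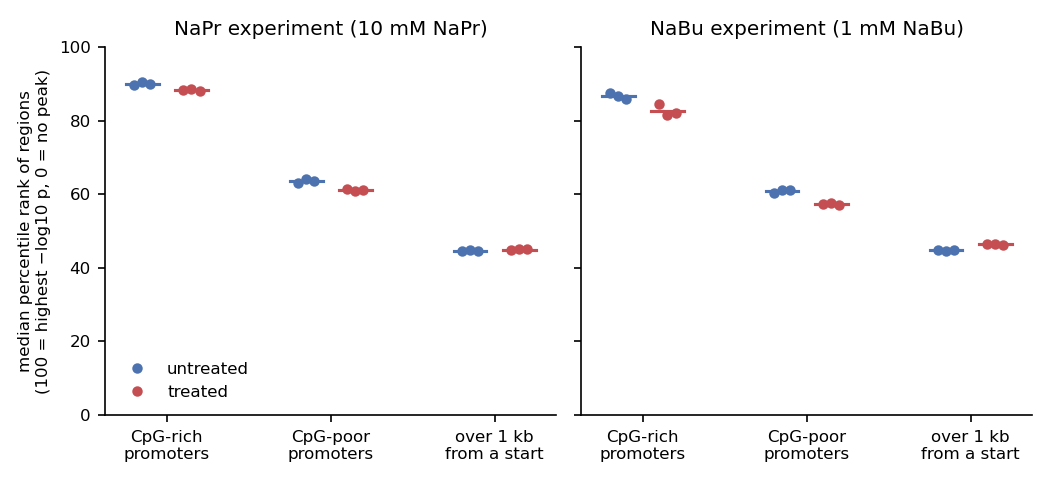
Median percentile rank (vertical axis, 100 = highest −log10 p) of CpG-rich promoters, CpG-poor promoters and regions over 1 kb from a start in each library, with a bar at the mean of 3 libraries. Treated libraries lie below untreated ones for both promoter classes, by 1.74 and 4.02 points for CpG-rich promoters, and slightly above them for regions far from a start.

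The top of the lists showed the same. Among the 10000 strongest intervals of a library, 55.2% ± 2.00 lay in CpG-rich promoters without and 49.3% ± 0.73 with NaPr, and 50.3% ± 2.32 without and 44.6% ± 2.22 with NaBu. Neither pair of groups overlapped (exact permutation p = 0.1 each). The number of members with a peak was 12417 ± 25 against 12180 ± 60 in the NaPr experiment and 13344 ± 89 against 12407 ± 80 in the NaBu experiment, again without overlap (exact permutation p = 0.1 each). Peak intervals at these promoters had a median width of 939 ± 104 bp without and 807 ± 25.5 bp with NaBu (exact permutation p = 0.1). With NaPr the widths of 948 ± 97.1 and 836 ± 114 bp overlapped (exact permutation p = 0.2). In regions over 1 kb from a start the median widths overlapped in both experiments. Widths at CpG-poor promoters are not given here, and their interval edges follow below.

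Single regions were tested with limma over all regions that had a peak in at least 2 of the 6 libraries of an experiment, and adjusted p below 0.05 was called. After NaPr, 12807 members passed that filter, of which 1339 (10.5%) had a lower and 116 (0.906%) a higher rank. Over all 124067 regions tested, 3.97% were called lower and 4.54% higher. The median difference of the members was -1.24 points, against 0.02 over all regions and -1.08 over CpG-poor promoters. In regions with a peak in all 6 libraries, where absence plays no part, 1213 of 11550 members were lower (10.5%, all such regions 5.4%) and 86 higher (0.745%, all such regions 5.18%). These NaPr calls were not stable: without any single treated library limma called 0 members in either direction (3392 to 3623 had an unadjusted p under 0.05), and without untreated replicate 1, 2 or 3 it called 397, 61 and 37 lower and 45, 14 and 6 higher.

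After NaBu, 13907 members passed the filter, and 4241 (30.5%) were lower and 780 (5.61%) higher, while 17.2% of all 123730 regions tested were lower and 19.7% higher. The median difference was -2.42 points, against 0.70 over all regions and -1.005 over CpG-poor promoters, of which 1810 of 7814 were lower and 1169 higher. With a peak in all 6 libraries, 3214 of 11569 members were lower (27.8%, all such regions 17.9%) and 627 higher (5.42%, all such regions 18.1%). Leaving out 1 library at a time gave 2943 to 4652 lower and 556 to 684 higher. Regions with a peak in a single group could enter the test only through that group. After NaBu 564 members had a peak in every untreated and no treated library (3.72% of all regions did) and 118 the reverse (6.41% of all). After NaPr these were 112 (1.5% of all) and 50 (2.95% of all).

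The split between lower and higher depended on the scale. Ranked by fold enrichment, 176 members were lower and 13 higher after NaPr (1.23% and 2.03% of all regions), and 2289 and 1212 after NaBu (13.7% and 13.3% of all). Ranked only among themselves, 458 members were lower and 348 higher after NaPr (3.58% and 2.72%), and 1769 and 1672 after NaBu (12.7% and 12%). The tags at the strongest summit, recovered from fold and p, were also tested in regions with a peak in all 6 libraries. Scaled by the median region, the recovered log2 pileup of members differed by a median of -0.28 after NaPr (5467 lower, 121 higher) and -0.36 after NaBu (7264 and 324). Of all regions, 19.9% were lower and 12.2% higher after NaPr, and 28.6% and 24.4% after NaBu. Scaled by the background of each library, the median difference of members was -0.03 after NaPr, with 137 lower and 0.874% of members higher (1.1% and 13.5% of all regions), while that of all regions was 0.21. After NaBu it was -0.36, with 7306 lower and 311 higher (28.8% and 24% of all). Ranking among members alone centres them, so its near-equal split says nothing of direction. On the other scales lower calls outnumbered higher ones after NaBu.

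The change had a side. For the following values, 9986 members that contain their start and have no divergent partner were oriented by transcription, and all summits within 1 kb of the start were counted. In untreated cells the summits formed a ladder after the start, with maxima of 496 and 410 summits per 1000 promoters in the bin from 0 to 50 bp (NaPr and NaBu experiments), 399 and 372 at 200 to 250 bp, 250 and 250 at 400 to 450 bp, and 157 and 172 at 600 to 650 bp. The spacing of 200 bp is about that of nucleosomes along DNA. Before the start there were maxima, lower than that at the start, at -150 to -100 and -350 to -300 bp.

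**Figure D2:**
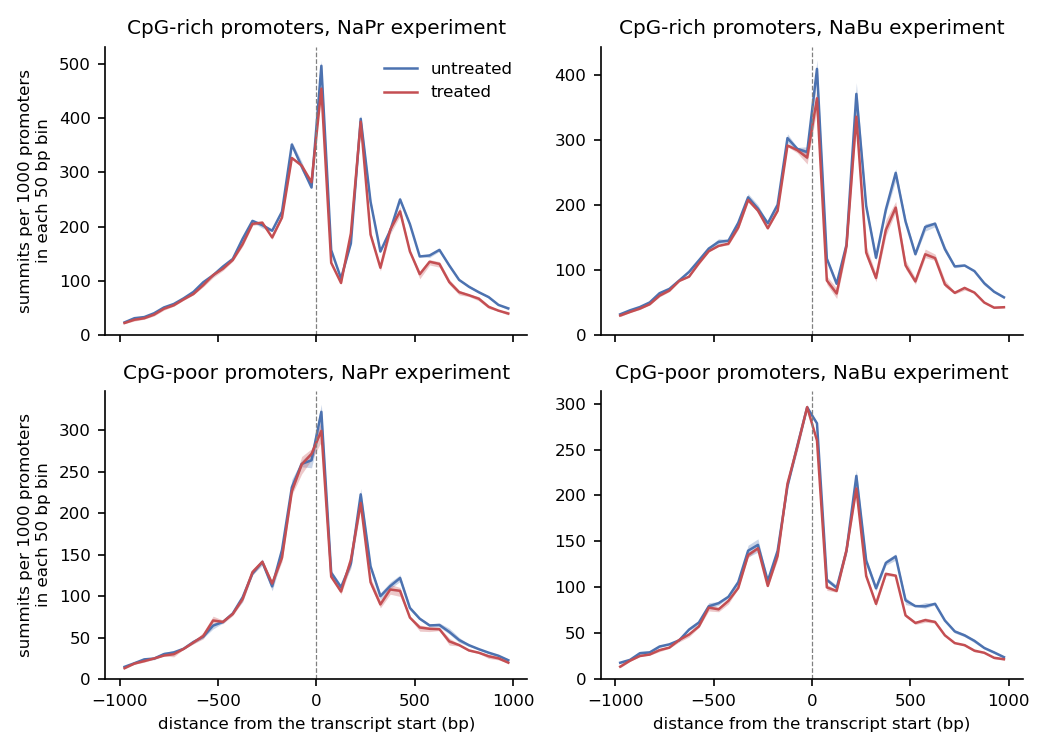
Peak summits per 1000 promoters in bins of 50 bp (vertical axis) against distance from the transcript start in bp (horizontal axis, positive values inside the gene), as group means with the range of 3 libraries shaded. At the maxima after the start of CpG-rich promoters the treated means lie below the untreated ones, by 1.3% (NaPr, 200 to 250 bp) to 32.3% (NaBu, 750 to 800 bp). At -150 to -100 bp they lie 7.06% (NaPr) and 3.74% (NaBu) below.

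After treatment the relative decline was largest in the windows farthest into the gene. With NaBu, summits per 1000 CpG-rich promoters declined by 15.5% from 0 to 150 bp after the start (607 ± 22.1 to 513 ± 30.7), by 16.9% from 150 to 350 bp, by 26.2% from 350 to 550 bp (743 ± 22.7 to 548 ± 33.9) and by 33.2% from 550 to 1000 bp (987 ± 11.4 to 659 ± 23.2). In none of these windows did the groups overlap (exact permutation p = 0.1 each). Before the start the decline was 2.5% from -150 to 0 bp (groups overlapping, exact permutation p = 0.2) and 3.1% from -350 to -150 bp (also overlapping). It was 3.7% from -550 to -350 bp and 4.8% from -1000 to -550 bp, where the groups did not overlap (exact permutation p = 0.1 each). With NaPr the declines after the start were 9.7%, 8.0%, 13.1% and 17.8% in the same order, also without overlap (exact permutation p = 0.1 each), and 1.4% to 5.2% before it, where the groups were apart from -350 to -150 and from -1000 to -550 bp and overlapped in the other windows. At CpG-poor promoters the declines after the start were 6.3% to 21.7% with NaBu, and 5.9% to 12.1% with NaPr, where the groups overlapped up to 350 bp.

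Counted per promoter, summits after the start went from 3.17 ± 0.09 to 2.41 ± 0.13 with NaBu and from 3.39 ± 0.02 to 2.98 ± 0.08 with NaPr. Those before it went from 2.84 ± 0.04 to 2.75 ± 0.02 and from 2.801 ± 0.006 to 2.72 ± 0.04. The groups did not overlap on either side of the start in either experiment (exact permutation p = 0.1 each). The share of summits that lay before the start was 47.0%, 47.2% and 47.8% in the untreated and 52.0%, 54.3% and 53.5% in the NaBu-treated libraries. In the NaPr experiment it was 45.3%, 45.2% and 45.2% untreated and 48.1%, 47.6% and 47.5% treated. Treated libraries were higher throughout (difference 5.97 and 2.51 points, exact permutation p = 0.1 each). The strongest summit of a promoter lay before the start in 61.7% ± 0.17 of promoters without and 68.7% ± 0.75 with NaBu, and in 58.6% ± 0.18 and 63.1% ± 0.39 in the NaPr experiment. For the next shares only summits within 500 bp of the start were counted. Promoters with such summits before the start and none after it made up 7.59% ± 1.62 and 15.7% ± 2.63 (NaBu) and 3.40% ± 0.15 and 5.17% ± 0.52 (NaPr).

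The edges of the peak intervals moved in the same way. With NaBu the median distance from the start to the downstream edge was 705, 674 and 664 bp untreated and 547, 494 and 502 bp treated. In the NaPr experiment it was 608, 655 and 650.5 bp untreated and 513, 555 and 607 bp treated. Both sets of groups were apart, by 167 and 79.5 bp (exact permutation p = 0.1 each), although treated replicate 3 lay only 1 bp below untreated replicate 1 after NaPr. Within each NaPr group the edge lay farther out where the background pileup was higher. It was 0.936, 2.35 and 2.02 untreated and 0.938, 1.27 and 1.77 treated, in order of replicate. Edges were not compared at a common threshold, and the part of depth was not tested. The upstream edge stood at 534 ± 18.7 and 540 ± 4.6 bp in the NaBu experiment (exact permutation p = 0.6) and at 461 ± 15.9 and 459 ± 24.6 bp in the NaPr experiment (p = 1.0), and both sets of groups overlapped. At CpG-poor promoters the downstream edge moved by 44 bp with NaBu and by 28.2 bp with NaPr (the latter overlapping, exact permutation p = 0.3). The difference between the promoter classes in this shift was 123 bp with NaBu and 51.3 bp with NaPr (treated and untreated libraries apart, exact permutation p = 0.1 each). For the share of summits before the start it was 3.47 points with NaBu (exact permutation p = 0.1) and 0.48 points with NaPr (overlapping, p = 0.2).

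**Figure D3:**
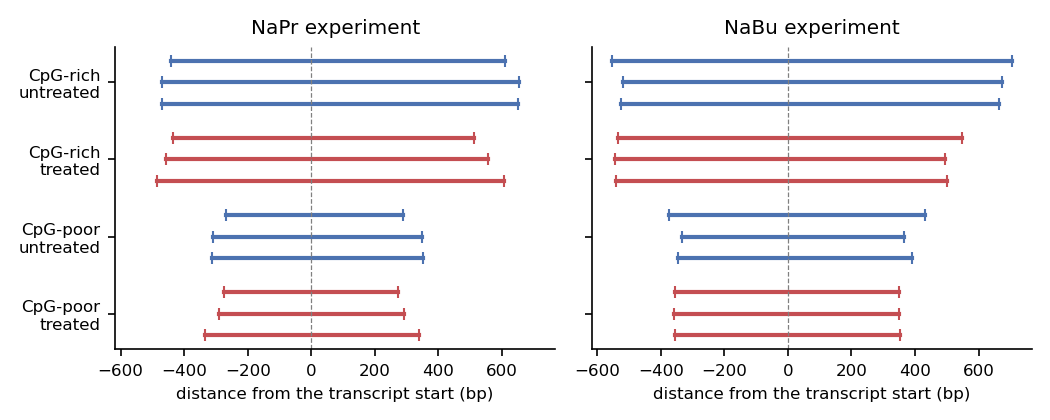
Median upstream and downstream edge of the peak interval that holds the start, in bp from the transcript start (horizontal axis), 1 line per library for CpG-rich and CpG-poor promoters. The downstream end of CpG-rich promoters is nearer the start in treated libraries, at 494 to 547 bp against 664 to 705 bp with NaBu, and the upstream ends line up.

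Base composition differed between the sides, with a median GC of 63.0% in the 500 bp before and 69.8% in the 500 bp after the start. In the 2465 promoters with no more GC after the start than before it (70.6% before, 64.6% after), the share of summits before the start went from 54.9% ± 0.13 to 59.3% ± 0.49 with NaBu and from 55.8% ± 0.19 to 58.2% ± 0.38 with NaPr, and the downstream edge from 560 ± 27.8 to 444 ± 1.15 bp and from 479 ± 20.6 to 410 ± 33.1 bp. None of these groups overlapped (exact permutation p = 0.1 each). The NaBu shifts were 4.39 points and 117 bp here, against 5.97 points and 167 bp over all 9986, and the NaPr shifts 2.45 points and 68.3 bp, against 2.51 points and 79.5 bp. The part of base composition was not tested. With summits of a −log10 p of at least 10 only, which all lists reach, the shares were 47.5% ± 0.50 and 53.6% ± 1.055 (NaBu) and 46.4% ± 0.89 and 49.97% ± 1.55 (NaPr), again apart.

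Regions that lay wholly to a single side of the start told the same. Of members tested after NaBu, 804 of 1685 wholly after the start (47.7%) were lower and 72 (4.27%) higher, against 302 (23.04%) lower and 192 (14.6%) higher of 1311 wholly before it and 3135 lower and 516 higher of 10911 across it (17.2% and 19.7% over all regions tested). The members after the start had a peak in 86.9% ± 3.10 of cases in untreated and 49.8% ± 0.70 in treated libraries, and those before it in 75.3% ± 4.40 and 73.6% ± 1.97. The mean rank of the members before the start was also lower with NaBu, 41.2 ± 1.93 against 36.7 ± 0.54 (exact permutation p = 0.1). Members with peaks in a single group entered these counts through that group, and 375 members after the start had a peak in every untreated and no treated library. Among those with a peak in all 6 libraries, 251 of 592 (42.4%) after the start were lower and 44 higher, against 134 of 591 (22.7%) lower and 77 higher before it (17.9% and 18.1% over all such regions). After NaPr, 117 of 976 (12.0%) after the start were lower and 15 higher, against 34 lower and 30 higher of 749 before it. Over all regions tested, 3.97% were lower and 4.54% higher. With a peak in all 6 libraries these were 37 of 385 and 4 after the start and 18 of 355 and 11 before it. A peak present throughout the treated and absent from the untreated libraries occurred in 89 of 1311 members before and 21 of 1685 after the start with NaBu (6.41% of all regions tested). The reverse occurred in 84 and 375 (3.72% of all regions tested).

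**Figure D4:**
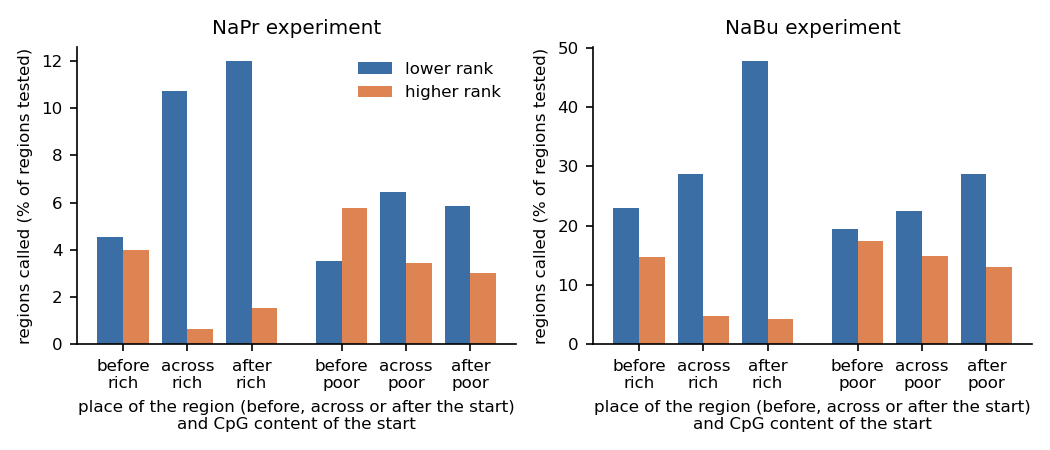
Share of tested regions called lower (blue) or higher (orange), in percent, for regions wholly before, across or wholly after the start of CpG-rich and CpG-poor promoters. The highest bar in the NaBu experiment is the lower-rank share after CpG-rich starts, 47.7%, and the vertical scales of the experiments differ.

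At some genes both directions met at a short distance. Of the 11089 genes with a member, 2783 had more than 1 member. After NaBu 155 genes had members called in opposite directions, and in 133 the nearest such pair lay within 3000 bp. The higher region was upstream of the lower one in 107 and downstream in 26. After NaPr there were 10 such genes, 8 within that distance, with the higher region upstream in 6. These counts use the same calls as the counts by place and are no separate support for them. Over all regions tested after NaBu, 17.2% were called lower and 19.7% higher. No count of such pairs is given for CpG-poor promoters or for all regions, so the values do not show that opposite calls or their order are particular to members. PRKCD, which encodes protein kinase C delta, was a case in both experiments. Its region 923 bp before the start (chr3:53159111-53160197) had ranks of 57.1, 64.3 and 61.0 untreated and 85.1, 78.1 and 74.6 with NaPr, and rose by 18.47 ± 3.68 points (SE, limma adjusted p = 0.0201). The region across the start (chr3:53160578-53161826) fell by 6.23 ± 1.35 (adjusted p = 0.0261). The region 407 bp after it (chr3:53161928-53162134) had ranks of 80.0, 64.5 and 66.9 untreated and no peak in any treated library. With NaBu the first rose by 8.27 ± 1.76 (adjusted p = 0.00908), the last was again without a peak in treated libraries (57.7, 54.0 and 54.7 untreated), and the one across the start differed by -7.29 ± 2.77 and was not called (adjusted p = 0.076). The other PRKCD region, 795 bp after the start, had untreated ranks of 39.2, 50.6 and 34.9 and no peak with NaBu.

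MYC, the proto-oncogene that drives growth and a target of WNT signalling, had 4 members on chromosome 8. The first, across its upstream starts, ranked 98.6 to 99.0 untreated and 99.7 to 99.8 with NaPr, and above 99.9 in all 6 libraries of the NaBu experiment, and was not called (adjusted p = 0.224 and 0.989). The 3 that followed inside the gene were all called lower after NaBu and 2 of them after NaPr. The middle one, across an internal start, had ranks of 70.3, 68.8 and 66.6 untreated and no peak with NaBu, and 66.9, 70.9 and 66.2 untreated against 0, 22.2 and 29.0 with NaPr (difference -50.97 ± 9.60, adjusted p = 0.0169). The one before it fell by 19.47 ± 3.92 with NaBu (adjusted p = 0.00727), and the last fell by 24.58 ± 3.93 (adjusted p = 0.00305). With NaPr the former fell by 43.98 ± 10.04 (adjusted p = 0.0306), whereas the last differed by -5.12 ± 2.27 and was not called (adjusted p = 0.195). AXIN2, a scaffold of the complex that degrades beta-catenin, behaved alike. Its 1716 bp region differed by -4.56 ± 2.62 and -4.98 ± 3.64 points and was not called, while the 360 bp region next to it, further into the gene (chr17:65560192-65560551), lost its peak in all treated libraries of both experiments (71.1, 67.6 and 58.9 untreated in the NaPr experiment and 48.3, 38.1 and 35.5 in the NaBu experiment).

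The strongest rank changes were mostly gains or losses of a whole peak, with KBTBD12 (a peak of rank 32.6 in untreated replicate 1) and PAFAH1B2 as the exceptions. After NaPr the 6 largest falls were at PRKCD, BCL9L (a beta-catenin cofactor), PXN (paxillin of focal adhesions), ZNF703, AXIN2 and JADE2. They ranked 58.9 to 80.0 in untreated libraries and had no peak in treated ones. BCL9L (chr11:118911115-118911362) was the same region in both experiments, with 76.4, 71.8 and 75.2 untreated and no peak with NaBu. Regions without a peak in 1 group entered the test only through the other group. Their ranks in the group without a peak were all set to 0, so no p-value is given for them here. The 6 largest falls after NaBu also included LTBP3 (latent TGF-beta binding protein, 83.2, 85.3 and 86.0 untreated, no peak treated), UBA6, COPB2 and MTG2, and PAFAH1B2, which had a peak of rank 17.5 in treated replicate 1.

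The largest rises were led after NaPr by PPP1R12C, a myosin phosphatase subunit, whose region 834 bp before the start (chr19:55118471-55118841) had no peak untreated and ranks of 61.1, 67.7 and 69.2 treated. It rose with NaBu as well (54.6, 66.7 and 61.4 against no peak). H2AJ, a histone H2A variant, rose in a region 352 bp before its start to 58.8, 62.6 and 58.2 with NaPr, and VPS8, KBTBD12, SLC52A2 and ZNF394 completed the list. Of these 6 regions, 5 lay before the start. After NaBu the list held HIBADH (valine breakdown), SLC17A7 and SLC1A4 (glutamate and neutral amino acid transporters), TUBA1C, PLEKHG5 and PPP1R12C, with treated ranks of 54.6 to 76.0. Of these, 3 lay before, 2 after and 1 across the start.

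Among promoters with a peak in all 6 libraries, fold enrichment gave the following extremes after NaPr. NUDT19 had fold enrichments of 11.8, 12.7 and 13.5 untreated and 5.51, 6.31 and 6.28 treated, and its rank fell by 5.18 ± 0.91 (adjusted p = 0.0135). USH1G, ZFP90, ACTN2 and SELENON were further falls, with log2 differences of fold enrichment from -1.01 to -0.81. For ACTN2 the ranks were 78.8, 79.6 and 77.5 untreated and 53.8, 59.97 and 63.9 treated. PCDH9, a protocadherin of cell adhesion, led the rises with ranks of 30.4, 28.5 and 44.6 untreated and 68.6, 63.2 and 66.1 treated, followed by C20orf85, PLXNA2, ZFR2, PRKCD and PLEKHG4B (log2 differences 0.86 to 1.18). PLXNA2 and ZFR2 also rose with NaBu, by 7.50 ± 1.69 and 36.36 ± 6.12 points (adjusted p = 0.0113 and 0.00368). NUDT19 and USH1G are exceptions to the direction on another scale, since the recovered pileup scaled by background was 0.31 and 0.23 higher on the log2 scale with NaPr.

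After NaBu, 6 falls and 6 rises were named in the same way. SRSF12 had ranks of 72.3, 69.4 and 75.3 untreated and 49.0, 16.8 and 17.1 treated, and ARID3C had 87.4, 85.5 and 79.7 against 61.6, 31.9 and 36.1. In both, treated replicate 1 lay above the other treated libraries, and the groups did not overlap. NRBP2, RCN1 (a calcium-binding protein of the endoplasmic reticulum), KCNF1 (a potassium channel subunit) and PNCK (a calmodulin-dependent kinase) completed the falls, all across their starts, with log2 differences of fold enrichment from -1.52 to -1.15. RNF111 led the rises, from 25.2, 28.4 and 45.7 to 83.5, 80.8 and 84.0. ARHGEF16 went from 82.5, 82.9 and 87.1 to 95.9, 95.9 and 95.0, and MANSC1, in a region 618 bp before its start, from 69.8, 72.5 and 73.6 to 94.8, 94.5 and 95.3. The MANSC1 region across the start fell by 8.19 ± 2.63 points (adjusted p = 0.0433). IDS (a lysosomal sulfatase), ZFPM1 (a cofactor of GATA factors) and NDUFAB1 (the mitochondrial acyl carrier protein) rose as well, with log2 differences of 1.08 to 1.12.

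**Figure D5:**
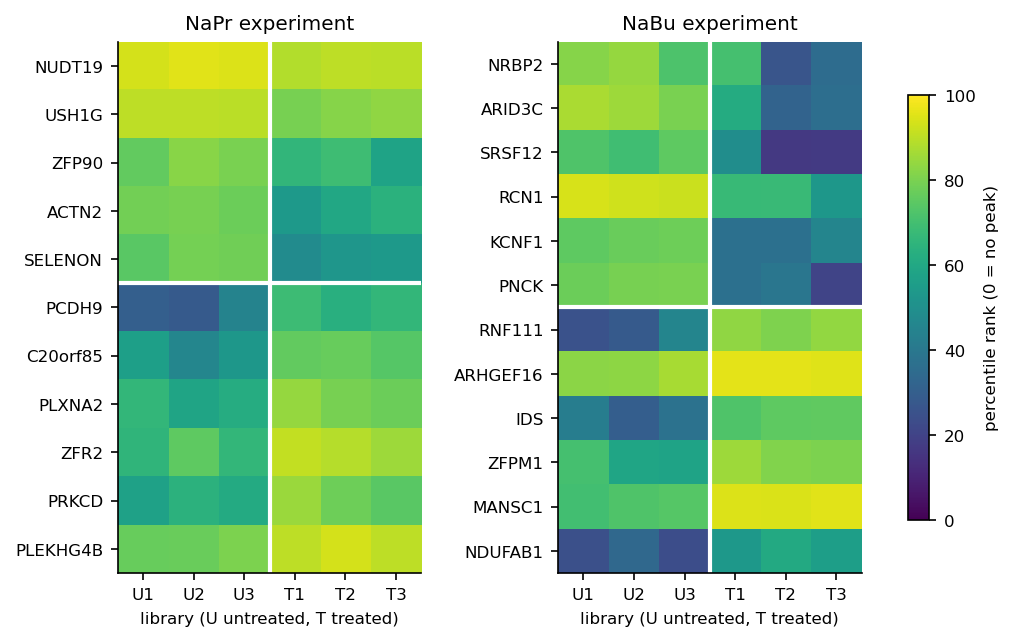
Percentile rank (colour, 0 = no peak) in each library of the promoters with the largest changes in fold enrichment in each experiment, with untreated (U) libraries left and treated (T) libraries right of the white line, and falls above rises. All 3 treated libraries differ from all 3 untreated ones in the same direction in each row, for example RNF111 at 25.2 to 45.7 untreated and 80.8 to 84.0 treated. The rows were chosen as called regions from these same libraries, so this agreement is no independent support.

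For the gene groups that follow, the shares to read the counts against are those of all members, 30.5% lower and 5.61% higher after NaBu and 10.5% and 0.906% after NaPr, and of all regions, 17.2% and 19.7% and 3.97% and 4.54%. WNT and TGF-beta pathway genes had 20 of 41 members (48.8%) lower and 3 higher after NaBu, and 8 of 40 (20%) lower and 0 higher after NaPr, with median differences of -6.86 and -3.29 points, against -2.42 and -1.24 over all members. Apart from AXIN2, SKI, a repressor of SMAD signalling, lost a peak 858 bp after its start with NaBu (54.4, 53.6 and 41.6 untreated), whereas LGR4, a receptor for R-spondins, gained a peak 791 bp before its start (41.5, 25.7 and 38.3 treated). Immediate-early genes, which respond first to growth signals, had 17 of 41 (41.5%) lower and 2 higher after NaBu and 6 of 39 (15.4%) lower and 0 higher after NaPr. Besides MYC, KLF6 fell 861 bp after its start with NaBu (53.5, 67.6 and 63.1 against 0, 18.5 and 0). Developmental transcription factors had 48 of 150 (32%) lower and 10 higher after NaBu and 12 of 151 (7.95%) lower and 3 higher after NaPr, near or below the shares of all members. POU2F3 lost the peak across its start in both experiments (57.3, 50.4 and 54.1 untreated in the NaPr and 69.8, 70.5 and 63.8 in the NaBu experiment). FOXA2, a factor of endoderm, rose by 19.75 ± 5.78 with NaBu in a region 424 bp before a start (adjusted p = 0.0307), while its region across a start fell by 17.44 ± 4.05 (adjusted p = 0.0126).

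Genes of cell division had shares of lower ranks near or below those of all members, apart from the small list of cyclin-dependent kinase inhibitors after NaPr. Their median untreated ranks in the NaBu experiment were 94.2 (DNA replication), 91.6 (mitosis) and 91.0 (inhibitors), against 86.7 over members. Strong members were called lower less often, so a low share does not show a smaller change. The recovered pileup (median scaling) differed by -0.33, -0.39 and -0.46, against -0.36 over members. DNA replication genes had 17 of 50 (34%, all members 30.5%) lower and 1 higher after NaBu and 3 of 45 (6.67%, all members 10.5%) and 0 after NaPr, with POLD2, a DNA polymerase subunit, losing a peak 299 bp after its start (58.8, 65.8 and 62.9 untreated with NaBu as treatment). Of genes of mitosis and cell-cycle progression, 10 of 57 (17.5%) were lower and 2 higher after NaBu, and 4 of 52 (7.69%) and 0 after NaPr. E2F3, an activator of S-phase genes, fell with NaPr (86.8, 92.5 and 90.0 against 80.6, 74.9 and 73.7) and fell by 24.99 ± 4.06 with NaBu (adjusted p = 0.00322), and E2F2 fell in both. Cyclin-dependent kinase inhibitors had 2 of 9 (22.2%) lower and 1 higher after NaBu and 2 of 7 (28.6%) lower after NaPr. CDKN2A was lower in both experiments (93.3, 90.9 and 90.7 against 85.1, 80.5 and 83.5 with NaBu), and CDKN1A gained a peak 484 bp before a start with NaBu (41.8, 19.1 and 29.5).

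In housekeeping lists the share of lower ranks was 16.0% to 28.8% after NaBu (all members 30.5%) and 0% to 5% after NaPr (all members 10.5%). These lists were also strong, with median untreated ranks of 91.7 to 94.3 in the NaBu experiment against 86.7 over members. In the order given next, their recovered pileup (median scaling) differed by -0.24, -0.37, -0.32, -0.29 and -0.29 after NaBu, against -0.36 over members. The part of strength was not tested. After NaBu, 13 of 81 members of cytoplasmic ribosomal protein genes were lower and 4 higher, 19 of 66 and 1 of mitochondrial ribosomal proteins, 14 of 65 and 1 of oxidative phosphorylation subunits, 10 of 36 and 1 of proteasome subunits and 8 of 40 and 2 of aminoacyl-tRNA synthetases. After NaPr these were 2 of 68, 3 of 60, 1 of 54, 1 of 28 and 0 of 30 lower, and 0 higher in each. FAU, which encodes a ribosomal protein, lost most of a peak 49 bp after its start with NaBu (73.8, 72.2 and 69.9 against 24.5, 0 and 0), and ATP5PO, a subunit of ATP synthase, lost a peak 583 bp after its start (57.6, 54.99 and 60.4 untreated). Zinc finger (ZNF) genes had 74 of 381 (19.4%) lower and 24 higher after NaBu and 26 of 365 (7.12%) and 11 after NaPr. Genes of the unfolded protein response, which relieves stress of the endoplasmic reticulum, had 5 of 30 (16.7%) lower and 2 higher after NaBu and 0 of 23 in either direction after NaPr.

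Histone deacetylases, acetyltransferases and readers had 9 of 42 (21.4%) lower and 6 (14.3%) higher after NaBu and 3 of 33 (9.09%) and 1 after NaPr, against 30.5% and 5.61%, and 10.5% and 0.906%, of all members. BRD2, which binds acetylated histones, rose with NaBu (86.8, 88.7 and 91.2 against 94.3, 95.4 and 95.2). Adhesion genes of the cadherin, catenin and integrin families had 9 of 38 (23.7%) lower and 3 higher after NaBu and 4 of 34 (11.8%) and 1 after NaPr. CTNNB1, which encodes beta-catenin, went from 97.9, 98.2 and 97.5 to 93.0, 91.9 and 94.4 with NaPr, and fell by 6.86 ± 1.204 with NaBu (adjusted p = 0.00432). Ion channel genes were nearly even after NaBu, with 17 of 90 (18.9%) lower and 16 (17.8%) higher, and had 12 of 102 (11.8%) lower and 2 higher after NaPr. KCNMA1, a calcium-activated potassium channel, lost its peak with NaBu (49.0, 54.0 and 47.0 untreated) and KCNC1 kept a peak in 1 treated library (68.5, 63.9 and 67.002 against 34.8, 0 and 0).

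Calls varied with the sequence around the start, which the selection used only as a limit. With members in 4 equal groups by GC, in the lowest group (55% to 64.4%), 22.4% were lower after NaBu and in the next groups 26.0%, 31.6% and 42.3% (GC 74.8% to 89.8% in the last). After NaPr these shares were 6.47%, 8.51%, 11.6% and 15.3%. The CpG ratio gave a flatter order, from 26.1% to 34.5% and from 9.06% to 12.2%. By the GC of the region itself (under 55%, 55 to 60%, 60 to 65% and higher), 31.1%, 22.6%, 27.9% and 38.4% of members were lower after NaBu, so the lowest group stood above the next 2, and 5.99%, 7.49%, 10.9% and 13.6% after NaPr. Of regions over 1 kb from any start, on the same scale of region GC, 29.2% were lower and 10.7% higher after NaBu and 8.62% and 1.86% after NaPr at 65% or more, against 14.2% and 20.1%, and 1.79% and 5.996%, below 45%. The part of GC content in the result was not tested. Strength also moved with it: in 4 equal groups by the untreated rank in the other experiment, 38.6%, 35.1%, 27.8% and 16.5% were lower after NaBu from weakest to strongest, and 14.1%, 16.2%, 8.56% and 3.79% after NaPr, where the weakest group was not the highest.

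Short motifs, 9 in all, were searched within 500 bp centred on each start, reading either strand. The CCAAT box (CCAAT) and the GC box (GGGCGG) are given first. The former was found in 37.6% of members and in 43.3% of all protein-coding starts. Members with it were lower in 23.7% of cases after NaBu and 6.77% after NaPr, against 34.7% and 12.7% of members without it. The GC box, found in 91.1% of members and 60.1% of all starts, went the other way, with 31.2% and 10.7% lower where present and 23.3% and 7.37% where absent. Matches to ETS (CCGGAAG, 20.4% of members and 14.9% of all starts), NRF1 (GCGCATGCG, 3.84% and 2.38%), CRE (TGACGTCA, 3.52% and 2.26%), YY1 (AAGATGGCG, 4.64% and 2.86%), E2F (TTTGGCGC or TTTCCCGC, 5.17% and 3.77%), BANP (CTCGCGAG, 2.52% and 1.56%) and AP-1 (TGANTCA, 3.99% and 8.83%) were counted as well. In that order, 29.2%, 24.7%, 25.1%, 23.5%, 30.8%, 27.9% and 33.2% of members with the motif were lower after NaBu, against 30.4% to 30.8% without it. After NaPr these shares were 9.79%, 8.02%, 6.71%, 6.95%, 10.8%, 8.49% and 13.5%, against 10.3% to 10.6% without it. A GC-only motif is more frequent in GC-rich sequence and CCAAT less so, and these shares were not adjusted for GC content. Members with a divergent partner were lower in 24.8% of cases after NaBu and 8.09% after NaPr, against 31.1% and 10.7% of the others.

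Both experiments tested 12150 members. Of these, 1295 were lower after NaPr and 3584 after NaBu, with 821 lower in both, 63.4% of the first list and 22.9% of the second. For higher ranks the lists held 106 and 670 members and shared 53, 50% and 7.91%. Over all regions tested in both, the shared part was 56.9% and 18.6% for lower and 65.9% and 16.8% for higher ranks. Opposite calls were made in 6 members (lower after NaPr, higher after NaBu) and 1 (the reverse). Across these members the differences correlated by 0.588 (Pearson) and 0.568 (Spearman), against 0.514 and 0.519 over all regions, given as a description across regions of the same genome that share base composition, and doses and dates differed between the experiments.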

How the data were processed

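ATAC-seq peak lists of 12 SW480 libraries (4 groups of 3) were used, and the CT26 libraries were not analysed here. The submitters' processing notes name bcl2fastq 2.17.1, cutadapt 1.9.1, Bowtie2 2.3.1 and MACS2 2.1.0 and the build hg38. The deposited lists give per summit the fold enrichment over local background as a ratio and the −log10 p and −log10 q, as the authors' peak caller wrote them for each library, without pooling. The authors called differential sites from read counts, which the lists do not hold, so regions were tested on ranks. The labels give 10 mM NaPr and 1 mM NaBu, which were used, whereas the design text of the series gives the doses in the other order.

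Intervals overlapping by at least 1 bp were merged and placed on GENCODE 44 (GRCh38). Within-library percentile ranks of each region's highest −log10 p were tested with limma 3.58.1 in R 4.3.3 (lmFit, eBayes with trend, two-sided, Benjamini-Hochberg over all regions tested). Differences are treated minus untreated with their SE. Values of 1 per library were compared with exact permutation tests (Python 3.11.15, scipy 1.17.1). The tag pileup at a summit was recovered from fold enrichment and −log10 p with a pseudocount of 1. Scripts were tested on simulated data with known changes. Regions with peaks in a single group passed the filter only through that group, so counts are also given for regions with a peak in all 6 libraries. Identical intervals made up 0.217% to 0.796% between replicates, so no library was treated as a duplicate. Named regions are the 6 largest rises and falls in rank and in log2 fold enrichment per experiment and up to 2 called members per direction of 16 gene lists, and other regions of these genes where given. Members and lists were chosen with earlier results of these data known. A sequence was printed from the first regions in fold enrichment whose 200 bases overlapped no annotated UTR and lay outside chromosome 8. Some named regions are not reported here.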

Additional observations from a re-analysis of the deposited data

How the results depend on the processing

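The main limit is depth and list length: lists end near 300000 lines, read totals were not analysed, and a missing peak says only that no summit reached the end of that list. Ranks do not show a change of all sites alike. With 3 against 3 libraries no exact test can go below p = 0.1. Summits per promoter and summit position relative to the start were planned, whereas tests of interval edges, summit windows and the place of regions were not in the plan. Alternatives for the position of summits and edges, and counts over regions with a peak in all 6 libraries, were chosen after seeing the data. Named regions kept their direction under most settings: 138 of 138 kept their call with the −log10 q threshold and 134 without a filter. All 55 named after NaPr lost their call without any single treated library, and 28, 43 and 48 lost it without untreated replicate 1, 2 or 3. Under ranks by fold enrichment 50 of 138 lost it.

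The NaPr count of lower members (1339) became 176 with ranks by fold enrichment, 5467 and 137 with the recovered pileup scaled by median or background, 458 with ranks among members, 2385 with windows on summits (of 22157 tested, against 12807), and 0 to 397 with a library left out. The count of higher members (116) became 13, 348 (ranks among members), 243 (windows), 77 (stricter CpG limits) and 0 to 45 with a library left out. For NaBu the lower count (4241) became 2289, 7264, 7306, 1769 and 8147 (windows, of 24328 tested, against 13907), and 2943 to 4652 with a library left out. The higher count (780) became 1212, 324, 311, 1672 and 1350, and 556 to 684. Peaks in all treated and no untreated library numbered 11 (NaPr) and 45 (NaBu) in the top 50000 intervals and 102 and 202 with windows, and the reverse 174 (NaPr) in the top 50000 and 408 and 1518 with windows. The change in the distance between CpG-rich and CpG-poor medians after NaPr (0.66) turned to -0.258 in the top 50000 and -0.212 with windows. The share of intervals in CpG-rich promoters (0.0854 points after NaPr) turned to -0.864 in the top 50000 and -0.316 with the −log10 q threshold. The cause of these differences was not tested.

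With a library left out, the median rank difference was -2.02 to -1.53 (NaPr) and -5.05 to -3.50 (NaBu), the CpG-rich minus CpG-poor difference 0.369 to 0.837 and -1.61 to 0.217, the width difference -172.5 to -59.5 and -163 to -72.2 bp, the share of intervals -0.228 to 0.472 and -1.76 to -1.57 points, the share of summits before the start 2.34 to 2.63 and 5.46 to 6.59 points, the downstream edge -104 to -56.8 and -183 to -155 bp and the upstream edge -15.3 to 9.17 and -0.5 to 17.0 bp. The upstream edge after NaBu (6.33 bp) turned to -7.17 bp in promoters with no more GC after the start and to -54.7 bp in those with a divergent start.

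Fitted with the replicate number as a replicate block, 82 members were lower and 7 higher after NaPr and 4728 and 733 after NaBu, and 57 of 138 named regions lost their call. Deviations of samples with the same number correlated by 0.007 to 0.046. Values this small do not decide whether the numbers pair the libraries.

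Named regions that turned direction did so with the recovered pileup (log2, median and background scaling) for NUDT19 after NaPr (0.0568 and 0.315), USH1G (background, 0.23), and after NaBu for CDC25B (-0.23 and -0.24), HSP90B1 across its start (-0.023 and -0.027), IER5 (-0.0387 and -0.0430) and the upstream SMAD7 region (-0.14 and -0.14), and with ranks by fold enrichment for ASNS (-1.56) and IER2 (-6.70).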
